A study of Mus musculus with 27 samples.

Results

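Hepcidin, encoded by Hamp, and 9 genes that set or answer to its level were followed pup by pup in the livers of mice whose mothers had eaten a low fat or a Western-style diet. The other genes were Bmp2, Bmp6, Id1, Smad7, Tfr2, Hfe, Tmprss6, Tfrc and Slc40a1, so that 10 of the 18820 genes with a single-gene probe set are described. Each gene was to be represented by its single-gene probe set of highest mean over all 27 arrays. Each of the 10 had only 1 such probe set, so this mean selected nothing. The genes were chosen by their known roles and with earlier results of these pups in view, in which the WSD and LFD values of both sexes had been compared, and a p-value given for one of them is therefore no independent evidence that iron handling responded to the diet.

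Hepcidin is a peptide hormone that hepatocytes secrete, and it binds the iron exporter ferroportin and causes its removal from the cell surface, which lowers the release of iron into plasma. Its transcription is driven by BMP ligands from the endothelium of the liver sinusoids, which act through BMP receptors, the co-receptor hemojuvelin and SMAD proteins, and by interleukin signals through STAT3. HFE and TFR2 help to sense iron-loaded transferrin, TMPRSS6 cleaves hemojuvelin, and ID1 and SMAD7 are induced by the same SMAD signal.

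Dams of strain C57BL/6J were given LFD, with 10% of energy from fat and 18.0 mg cholesterol/kg, or WSD, with 45% and 196.5 mg/kg, for 6 weeks before mating and until the pups were taken. Livers of 2-week-old offspring gave the groups m-LF (n = 6), m-WS (n = 6), f-LF (n = 9) and f-WS (n = 6), with m for males and f for females. All sires had the control diet, and pups met the diets only through their mothers. RNA of each liver was hybridised to 1 Affymetrix Mouse Gene ST array, and values are log2 signals after RMA.

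The markers of hepatocytes stood at a mean of 12.42 to 12.62 in every pup, high on the log2 scale. Numbers of unstated meaning stand in the array names, namely 37, 49 or 50 on LFD and 39, 40 or 48 on WSD. Each number lies within 1 diet, and it may mark dams or litters, in which case p-values that take pups as independent are too small. The pups m-LF6 and m-WS1 are labelled male but gave an Xist signal of 9.30 and 7.92, against 3.25 to 4.50 in 10 other males and 11.67 to 11.88 in females. For the genes that passed the filters, the changes in males are given with and without these pups. The precision is limited by the number of pups, and the median SD of a gene within a group was 0.12 to 0.13.

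The promoter of Hamp and that of its paralog Hamp2, a neighbouring gene of a closely similar sequence, are shown because both genes had higher signals in the males of WSD dams. The 250 bases before each start are from RefSeq (GRCm38.p6, minus strand), at chr7:30944030-30944279 for Hamp and chr7:30924182-30924431 for Hamp2, and read 5′ to 3′. Capitals mark GGCGCC, the core of a BMP-responsive element, or the letters aligned to it in Hamp2, and then the STAT motif TTCNNNGAA.
Hamp: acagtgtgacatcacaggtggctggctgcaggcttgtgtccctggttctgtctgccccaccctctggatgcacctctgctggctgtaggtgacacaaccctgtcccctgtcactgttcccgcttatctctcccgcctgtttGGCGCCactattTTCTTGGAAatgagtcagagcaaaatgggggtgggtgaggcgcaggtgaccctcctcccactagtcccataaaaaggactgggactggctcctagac
Hamp2: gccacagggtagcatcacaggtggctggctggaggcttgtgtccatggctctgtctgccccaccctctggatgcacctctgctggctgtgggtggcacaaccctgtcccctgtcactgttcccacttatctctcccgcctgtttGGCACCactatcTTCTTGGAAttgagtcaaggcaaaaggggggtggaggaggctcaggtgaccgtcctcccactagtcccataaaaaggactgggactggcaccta

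Over 247 aligned bases the promoters were identical at 227 (91.9%). The GGCGCC of Hamp lies 109 to 104 bases before the start, and at the aligned place Hamp2 has the substitution G4A, counted from 1 at the 5′ end of the element with the base of Hamp first. Both promoters hold the STAT motif as TTCTTGGAA, which ends 89 bases before the start in Hamp and 86 in Hamp2. Searched on both strands in windows of the same length, GGCGCC occurs in 9.589% of 32841 promoters, TTCNNNGAA in 7.022% and GGCACC in 12.877%. RefSeq promoters were matched for Hamp, Hamp2, Bmp6, Hfe, Tfr2 and Tfrc, and among the latter 4 GGCGCC was found in Tfrc, 89 to 84 bases before the start. The E-box CACGTG, present in 6.023% of promoters, was found in Bmp6 at 127 to 122 bases before the start. GGCACC itself also stood in Hamp2 at 8 to 3 bases and, on the opposite strand, in Bmp6 at 208 to 203 bases before the start. The motifs found in these promoters did not overlap each other, and a match is a description of letters, not a binding site.

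Hamp, the hormone itself, had the largest difference of the 10 genes between the diets, and it was seen in males. In m-LF the lowest, median and highest signals were 3.84, 4.56 and 5.38, and in m-WS they were 5.16, 6.15 and 7.43. Of the 6 m-WS pups 5 lay above every m-LF pup, and the ranges met only because m-LF6, the highest LFD male, exceeded m-WS1, the lowest WSD male. Hamp rose in males by 1.66 (standard error 0.43, 3.16-fold, 95% interval 0.79 to 2.53; limma, adjusted p = 0.0577). Without m-LF6 and m-WS1 the rise was 2.04 (limma, adjusted p = 0.0177), and these were the 2 males with an Xist signal.

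In females the Hamp signals were 3.93, 4.87 and 7.56 in f-LF (lowest, median, highest) and 3.87, 4.42 and 5.42 in f-WS. The groups overlapped over most of their range, and 1 LFD female, f-LF8, stood far above the other 8, which ended at 5.48. The difference was -0.48 (standard error 0.39, 95% interval -1.28 to 0.31) and did not pass, and without f-LF8 it was -0.17. The change in males exceeded that in females by 2.14 (standard error 0.58; limma, adjusted p = 0.355). Hamp was a dim probe set, and its intensity was under 20 in 2 of 6 m-LF, 0 of 6 m-WS, 2 of 9 f-LF and 3 of 6 f-WS pups.

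**Figure D1:**
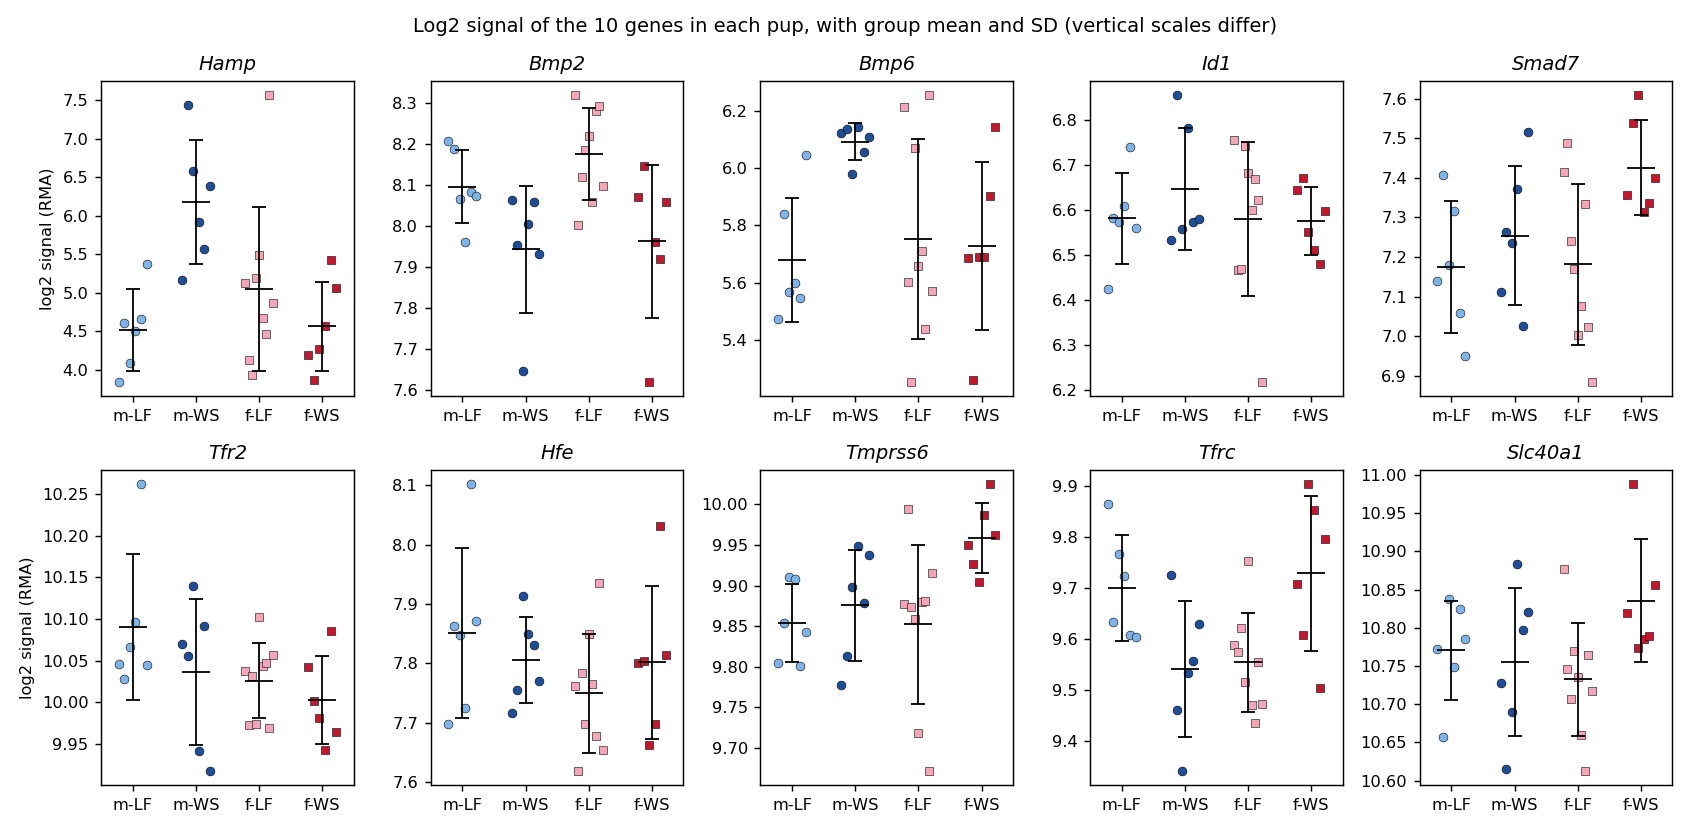
Log2 signal (RMA) of each gene in every pup, by group (m-LF, m-WS, f-LF, f-WS; n = 6, 6, 9 and 6), circles for males and squares for females, with horizontal and vertical bars for mean and SD. Hamp lies between 5.16 and 7.43 in m-WS and between 3.84 and 5.38 in m-LF, and 1 f-LF pup reaches 7.56.

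Of the 10 genes, 7 passed the filters on intensity and spread and were tested among 10810 genes; Tfr2, Tmprss6 and Slc40a1 varied too little between pups and are given from a fit without the filter on spread. In males 2 of the 7 changed at p 0.01, Hamp and Bmp6, where 5.62% of all genes tested did (3.02% higher and 2.60% lower). In females 3 of the 7 changed, Bmp2, Smad7 and Tfrc, against 5.19% of all genes (3.60% higher and 1.59% lower). None of the 7 had an adjusted p under 0.05 in limma in either sex, where 0.731% of all genes tested had one in males and 0.305% in females; 3 in each sex had an unadjusted p under 0.05, as had 14.3% of all genes in males and 14.5% in females. Without m-LF6 and m-WS1, 3 of the 7 changed in males, Hamp, Bmp6 and Tfrc, against 6.70% of all genes. The differences of Id1, Smad7 and Hfe in males were then 0.08, 0.06 and -0.02. With all pups the median change of the 7 was 0.07 in males and -0.004 in females, beside 0.007 and 0.014 over all genes.

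Bmp6, the ligand whose expression in liver endothelium follows iron load, was the other member that rose in males. Its signals were 5.47, 5.58 and 6.05 in m-LF (lowest, median, highest) and 5.98, 6.12 and 6.15 in m-WS. As with Hamp, 5 of 6 m-WS pups lay above all m-LF pups, and the exception came from m-LF6, which was as high as the WSD males. The rise was 0.41 (standard error 0.14, 1.33-fold; limma, adjusted p = 0.160), and 0.48 without m-LF6 and m-WS1. It missed p 0.01 when any of 9 single males was left out (m-LF1, m-LF3, m-LF4, m-LF5, m-WS1, m-WS2, m-WS4, m-WS5 or m-WS6; 0.37 to 0.42), and with the array number as a random block (0.39; limma, adjusted p = 0.324). The threshold was also missed without number 37, 40, 48 or 49 (0.37 to 0.45).

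In females, Bmp6 was at 5.25, 5.66 and 6.25 in f-LF and at 5.26, 5.69 and 6.14 in f-WS (lowest, median, highest). Both groups spanned the same range, and the difference was -0.02 (standard error 0.13; limma, adjusted p = 0.965). The change in males exceeded that in females by 0.44 (standard error 0.20), which did not pass (limma, adjusted p = 0.453). The spread of Bmp6 was smallest in m-WS, with an SD of 0.06 against 0.22 in m-LF, 0.35 in f-LF and 0.29 in f-WS.

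Bmp2, the other endothelial ligand that maintains hepcidin expression, was lower on WSD in both sexes, and the difference passed in females. The f-LF pups were at 8.00, 8.19 and 8.32 (lowest, median, highest) and the f-WS pups at 7.62, 8.01 and 8.15. All 6 f-WS pups lay below the mean of f-LF, and 3 lay below every f-LF pup. Bmp2 fell in females by 0.21 (standard error 0.07; limma, adjusted p = 0.162). The lowest pup was f-WS3, and without it the difference was -0.14 (limma, adjusted p = 0.357); it also missed p 0.01 without f-LF1, f-LF7, f-LF8 or f-WS5 (-0.20 to -0.19). It missed the threshold as well without number 40 (-0.13; limma, adjusted p = 0.527), 49 (-0.20; limma, adjusted p = 0.698) or 50 (-0.21; limma, adjusted p = 0.160), and with the arrays of a group and number averaged (-0.21; limma, adjusted p = 0.652). With the number as a random block it passed (-0.21; limma, adjusted p = 0.280).

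In males Bmp2 was at 7.96, 8.08 and 8.21 in m-LF and at 7.65, 7.98 and 8.06 in m-WS. Again all 6 WSD pups were below the LFD mean and 3 were below every LFD pup. The difference of -0.15 (standard error 0.08) did not pass (limma, adjusted p = 0.365), nor did that of -0.18 without m-LF6 and m-WS1 (limma, adjusted p = 0.299), and the changes of the sexes differed by 0.06 (95% interval -0.15 to 0.27). In bulk liver, fewer endothelial cells and less of an RNA per endothelial cell cannot be told apart. The 16 endothelial markers other than Bmp2 and Bmp6 had a mean signal of 8.59 to 8.91 in m-LF, 8.47 to 8.73 in m-WS, 8.63 to 8.90 in f-LF and 8.72 to 8.83 in f-WS. Of these markers 3 fell and 0 rose in males, where 2.60% of all genes tested fell and 3.02% rose. In females 0 of 16 changed, against 5.19% of all genes. The part of these markers in the values of Bmp2 and Bmp6 was not tested.

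**Figure D2:**
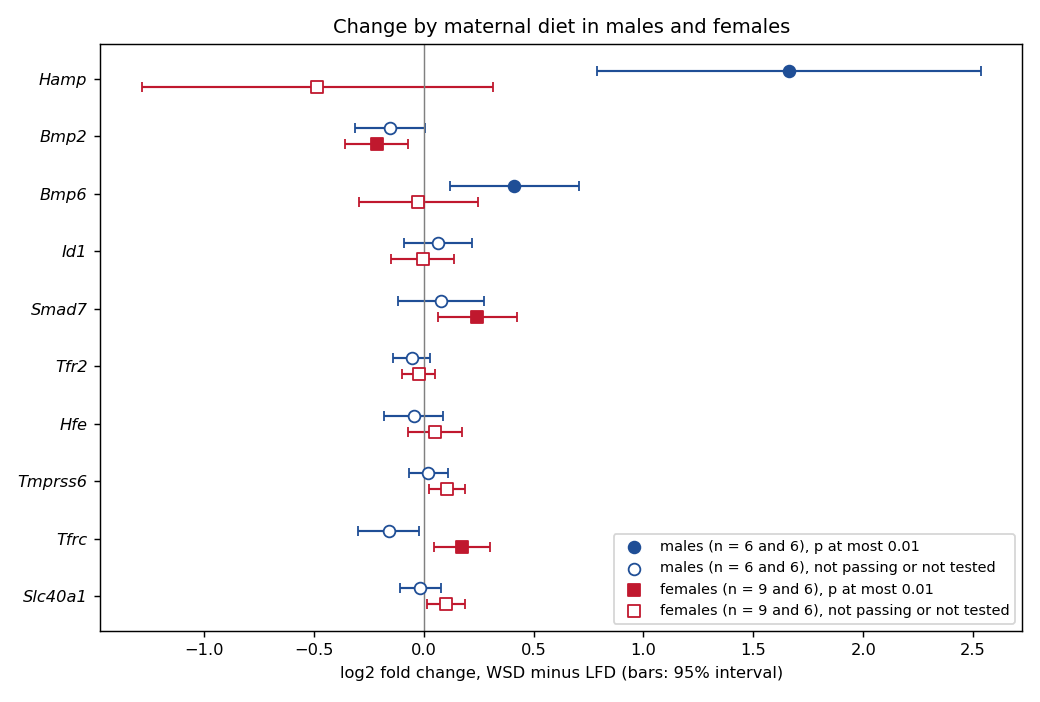
Log2 fold change (WSD minus LFD) of each gene with its 95% interval, males as circles and females as squares, filled where limma gave p at most 0.01. Hamp (1.66) and Bmp6 (0.41) are filled in males, and Bmp2 (-0.21), Smad7 (0.24) and Tfrc (0.18) in females.

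Of the 2 genes induced by the SMAD signal, neither had a change in males that passed the test. Id1, a DNA-binding inhibitor induced by BMP ligands, was at 6.42, 6.58 and 6.74 in m-LF and at 6.53, 6.58 and 6.85 in m-WS (lowest, median, highest). The medians of the males were alike, and the difference was 0.07 (standard error 0.08; limma, adjusted p = 0.766; 95% interval -0.09 to 0.22). In females Id1 was at 6.22, 6.62 and 6.76 in f-LF and at 6.48, 6.58 and 6.67 in f-WS, with a difference of -0.00399 (95% interval -0.15 to 0.14). Together the intervals leave room for changes from -0.15 to 0.22.

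Smad7, the inhibitory SMAD that dampens the BMP signal and hepcidin, rose in females. The signals were 6.88, 7.17 and 7.49 in f-LF and 7.31, 7.38 and 7.61 in f-WS (lowest, median, highest). All 6 f-WS pups lay above the mean of f-LF, and 2 lay above every f-LF pup. The rise was 0.24 (standard error 0.09; limma, adjusted p = 0.181). It was near the threshold: it missed p 0.01 in 23 of 48 other settings, which included 13 single pups, 4 of them males that bear on it only through the shared spread, with values of 0.21 to 0.26. The 9 females among these were f-LF4, f-LF5, f-LF6, f-LF8, f-LF9, f-WS1, f-WS2, f-WS3 and f-WS6, and the males were m-LF1, m-LF3, m-WS2 and m-WS3.

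In males Smad7 was at 6.95, 7.16 and 7.41 in m-LF and at 7.03, 7.25 and 7.52 in m-WS. The groups overlapped nearly throughout, and the difference was 0.08 (standard error 0.10; limma, adjusted p = 0.782). The changes of the sexes differed by -0.17 (males minus females, standard error 0.13; limma, adjusted p = 0.700), so the rise in females was not shown to be larger than that in males.

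Among the sensors of transferrin iron, Hfe, an MHC-like protein that binds transferrin receptors, was at 7.70, 7.85 and 8.10 in m-LF and 7.72, 7.80 and 7.91 in m-WS (lowest, median, highest). In females it was at 7.62, 7.76 and 7.94 in f-LF and 7.66, 7.80 and 8.03 in f-WS. The differences were -0.05 (standard error 0.07) and 0.05 (standard error 0.06), and the groups overlapped in both sexes (limma, adjusted p = 0.825 and 0.746). Tfr2, the second transferrin receptor, lay between 9.92 and 10.26 in all 27 pups, with differences of -0.05 (standard error 0.04) in males and -0.02 (standard error 0.04) in females. The 95% intervals of Tfr2 ran from -0.14 to 0.03 and from -0.10 to 0.05.

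Tmprss6, the protease that lowers hepcidin by cleaving hemojuvelin, lay between 9.67 and 10.02 in all pups. Its lowest value belonged to f-LF8, the female with the highest Hamp. The difference was 0.02 (standard error 0.04) in males and 0.11 (standard error 0.04) in females, where all 6 f-WS pups lay above the f-LF mean but the test was not passed (limma without the filter on spread, adjusted p = 0.203).

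Tfrc, the transferrin receptor through which cells take up iron and whose mRNA is stabilised when iron is scarce, rose in females, and its difference in males, which did not pass, had the opposite sign. In females it was at 9.44, 9.56 and 9.75 in f-LF (lowest, median, highest) and at 9.50, 9.75 and 9.90 in f-WS. Of the 6 f-WS pups 5 lay above the f-LF mean and 3 above every f-LF pup. It rose by 0.18 (standard error 0.06; limma, adjusted p = 0.178). The rise missed p 0.01 in 23 of 48 other settings, among them the omission of f-LF2, f-LF4, f-LF6, f-LF7, f-LF8, f-LF9, f-WS1, f-WS3, f-WS4 or f-WS6 (0.14 to 0.18). Both females of number 40, f-WS3 and f-WS4, had the highest values among the females, and without that number the difference was 0.10 (limma, adjusted p = 0.598).

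In males Tfrc was at 9.60, 9.68 and 9.87 in m-LF and at 9.34, 9.54 and 9.73 in m-WS. Of the 6 m-WS pups 4 lay below every m-LF pup, and m-WS1 was the highest of its group. The difference was -0.16 (standard error 0.07; limma, adjusted p = 0.257); it passed p 0.01 without m-WS1 (-0.20; limma, adjusted p = 0.187) and without m-LF6 and m-WS1 (-0.22; limma, adjusted p = 0.115). The change in males minus that in females was -0.33 (standard error 0.09; limma, adjusted p = 0.361). Tfrc is also abundant in red cell precursors, whose 16 other markers had a mean of 4.88 to 5.58 in m-LF, 4.92 to 5.41 in m-WS, 4.89 to 5.81 in f-LF and 4.90 to 5.24 in f-WS. Of 14 erythroid markers tested 0 changed in males, where 5.62% of all genes tested did. In females 1 fell (Sptb, erythroid spectrin), where 1.59% of all genes did. The part of these markers in the values of Tfrc was not tested.

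Slc40a1, which encodes ferroportin, the iron exporter that hepcidin removes, lay between 10.61 and 10.99 in all pups. The difference was -0.02 (standard error 0.05, 95% interval -0.11 to 0.08) in males and 0.10 (standard error 0.04) in females. All 6 f-WS pups lay above the f-LF mean, but the test was not passed (limma without the filter on spread, adjusted p = 0.248). The array reads RNA, and the amount of the ferroportin protein was not measured.

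The changes of Hamp and Tfrc differed between the sexes at p 0.01, 2 of the 7 tested, where 2.50% of all genes did. Both kept p 0.01 in all 47 other settings that used this threshold, with 1.83 to 2.61 for Hamp and -0.39 to -0.29 for Tfrc. Without m-LF6 and m-WS1 the differences were 2.52 and -0.39 (limma, adjusted p = 0.138 and 0.1696). No gene had an adjusted p under 0.05 for this difference in limma, with 1060 of 10810 genes at an unadjusted p under 0.05. On maternal LFD, 0 of the 7 differed between males and females at p 0.01, against 1.37% of all genes. The nearest was Tfrc, higher in males by 0.15 (standard error 0.06; limma, adjusted p = 0.740), and Hamp had a difference of -0.53 (standard error 0.39).

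Because each array number lies within 1 diet, the pups were also compared by number. The mean Hamp signal in males was 4.23, 4.30 and 5.02 in numbers 37, 49 and 50 (n = 2 each) and 6.30 and 6.11 in numbers 40 (n = 2) and 48 (n = 4). Both WSD numbers lay above all 3 LFD numbers, and number 50 was the highest of those on LFD. The rise of Hamp in males was 1.60 with the number as a random block (limma, adjusted p = 0.145) and 1.69 with the arrays of a group and number averaged (limma, adjusted p = 0.388). Leaving out a number gave 1.52 to 1.91, and without number 48, which leaves 2 WSD males, 1.78, which narrowly missed p 0.01 (limma, adjusted p = 0.331).

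In females the mean Hamp signal was 4.40, 4.95 and 6.22 in numbers 37, 49 and 50 (n = 3, 4 and 2) and 4.03, 4.42 and 5.24 in numbers 39, 40 and 48 (n = 2 each). The order of the numbers shared by both sexes on LFD was the same, with 37 lowest and 50 highest. Number 48 was the highest of the WSD females for Hamp and for Bmp6, whose means were 5.47, 5.69 and 6.02 in numbers 39, 40 and 48. The WSD females of number 40 had the lowest Bmp2 (mean 7.79) and the highest Tfrc (mean 9.88).

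**Figure D3:**
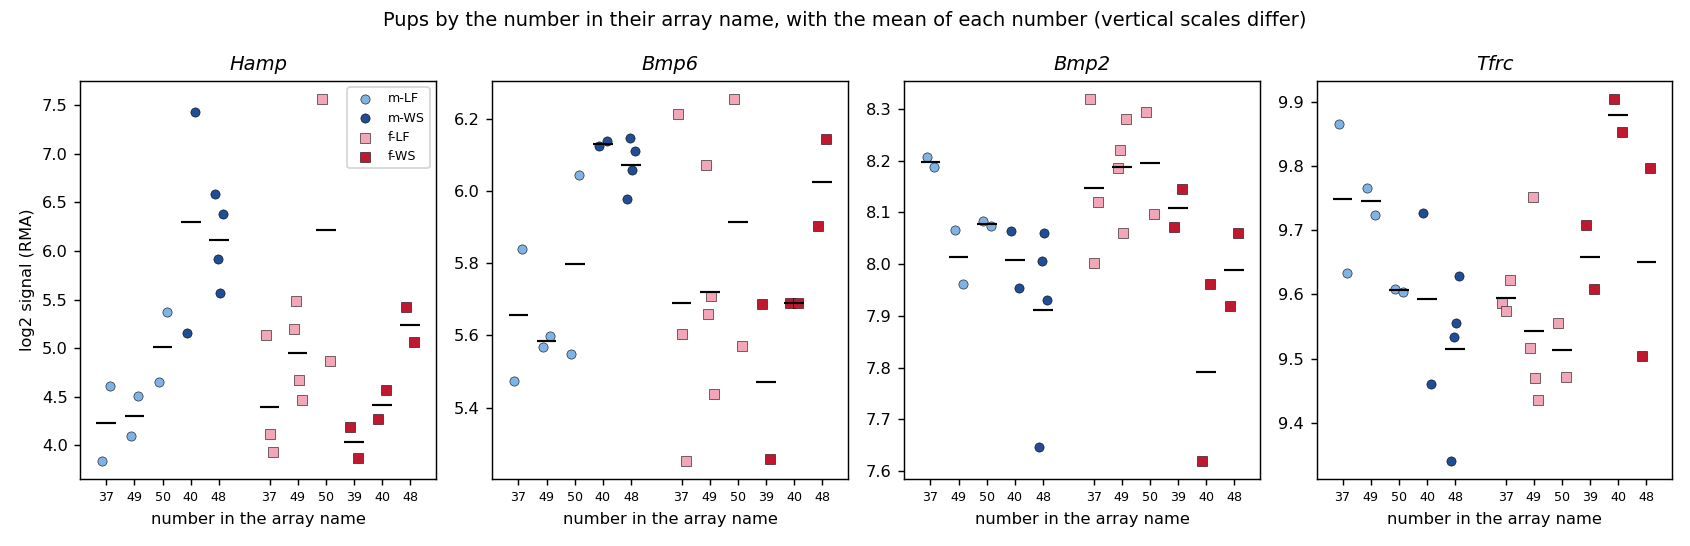
Log2 signal (RMA) of Hamp, Bmp6, Bmp2 and Tfrc in each pup, arranged by the number in the array name within males (circles) and females (squares), with a line at the mean of each number. The male means of Hamp are 4.23, 4.30 and 5.02 on LFD and 6.30 and 6.11 on WSD.

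Across pups, Hamp went with Bmp6. After removal of the group means, the 27 pups had a Pearson's r of 0.676 and a Spearman's rho of 0.638 (permutation test within groups, 2-sided, p = 6e-05 and 0.00051). This was 1 of 9 relations of Hamp with the other members, and the adjusted p of r was 0.00054. The relation held without the 2 pups farthest from the median of Bmp6 (r = 0.5997, permutation p = 0.00054), without those farthest from the median of Hamp, f-LF8 and m-WS2 (r = 0.650), and without m-LF6 and m-WS1 (r = 0.690). With the mean of each array number within its group removed it was 0.611 (permutation p = 0.0116, adjusted p = 0.104).

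Within single groups, r of Hamp with Bmp6 was 0.862 in m-LF, 0.746 in f-LF and 0.837 in f-WS, given as descriptions. In m-WS, where Bmp6 ran only from 5.98 to 6.15, it was -0.03. The pup with the highest Hamp of all, f-LF8, also had the highest Bmp6 of all, at 6.25. The lowest Hamp of f-LF and of f-WS belonged to f-LF3 and f-WS2, which also had the lowest Bmp6 of their groups.

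**Figure D4:**
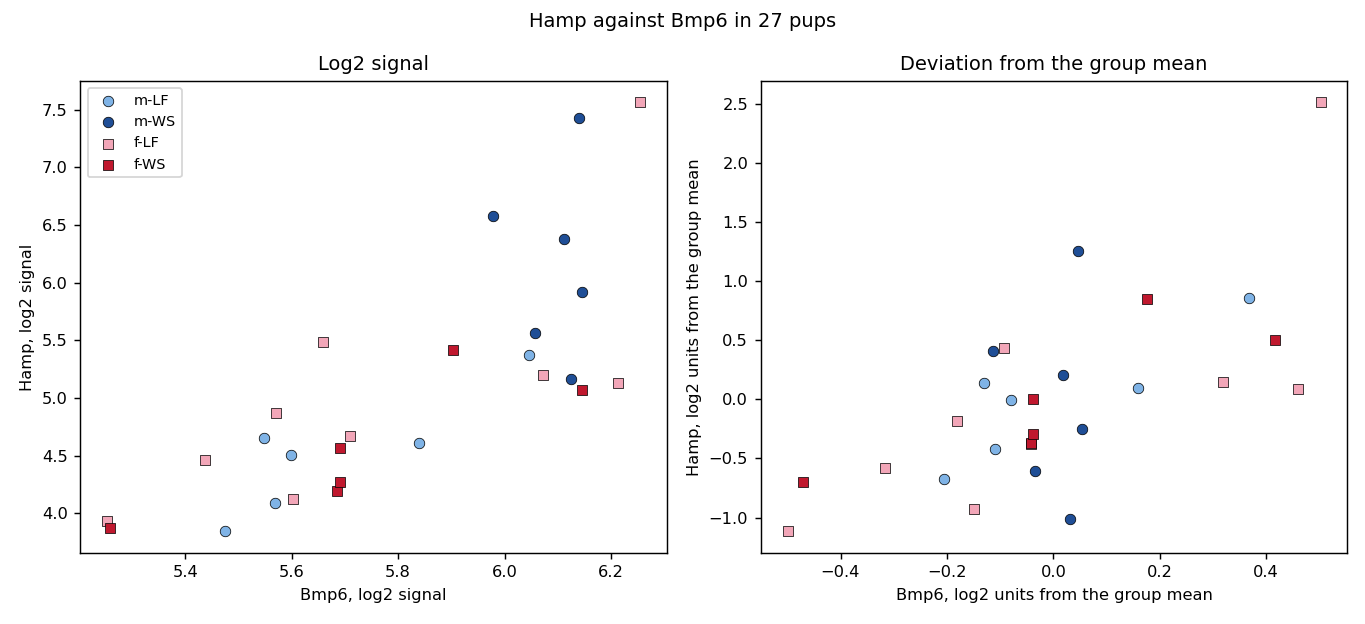
Hamp against Bmp6 in the 27 pups, as log2 signal (left) and as deviation from the group mean in log2 units (right), circles for males and squares for females. Pups with a higher Bmp6 had a higher Hamp (r = 0.770 on the left and 0.676 on the right), and f-LF8 lies at the upper right of both.

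Hfe had an r of 0.508 with Hamp after removal of the group means (permutation p = 0.00491, adjusted p = 0.0221) and a rho of 0.424 (permutation p = 0.0334, adjusted p = 0.150). Of 5 other settings the r of Hfe passed in 1, without m-LF6 and m-WS1 (r = 0.489). Without the 2 pups farthest from its median, the adjusted p of r was 0.0679 (r = 0.536), and without those farthest on Hamp 0.0829 (r = 0.494). It was 0.180 with group means kept (r = 0.324) and 0.5215 with the means of array numbers removed (r = 0.453). The relations with Id1 (r = 0.284), Smad7 (-0.260), Tfrc (-0.269), Tmprss6 (-0.428), Slc40a1 (-0.09), Bmp2 (0.04) and Tfr2 (-0.03) did not pass (permutation test, adjusted p at least 0.239). The r of Tmprss6 rested on pups at the low end of its range. Without the 2 farthest from its median, f-LF8 and f-LF5, it was 0.09, and without f-LF8 and m-WS2 it was 0.02.

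The genes whose signal was most like that of Hamp over all 27 arrays were Ranbp3l (r = 0.855), Hamp2 (0.839), Cib3 (0.822), Esm1, an endothelial proteoglycan (0.809), and Serpinb10 (0.791), out of 10809 genes compared. Bmp6 ranked 8 among them. After removal of the group means they were Ranbp3l (0.794), Cib3 (0.779), the leukocyte antigen Cd52 (0.774), Hamp2 (0.773) and Arhgef16 (0.768), and Bmp6 ranked 38. These are descriptions over arrays of 1 normalised set. Ranbp3l and Cib3 were dim, with medians under the intensity minimum (4.32 in log2) in every group. Both passed the filter only through their highest pups, among them f-LF8 and m-WS2, the 2 pups of highest Hamp. Their r is therefore no independent support for a relation with Hamp.

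Hamp2 had signals of 5.79, 5.83 and 6.42 in m-LF (lowest, median, highest) and 6.48, 6.71 and 7.18 in m-WS. All m-WS pups lay above all m-LF pups. Hamp2 rose in males by 0.84 (standard error 0.24; limma, adjusted p = 0.0880) and without m-LF6 and m-WS1 by 0.96 (limma, adjusted p = 0.0572), and the difference in females was 0.02 (standard error 0.22). The difference between the sexes was 0.82 (limma, adjusted p = 0.409). Hamp and Hamp2 are closely similar copies, so RNA of one may bind probes of the other, which was not tested.

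Of 24 other genes of the hepcidin and BMP/SMAD pathway that were tested, 1 rose in males (Hamp2) and 2 fell, and 0 changed in females. Their median change was -0.02 in males and -0.03 in females. Of all genes tested, 3.02% rose and 2.60% fell in males, and 5.19% changed in females. Gdf2, which encodes the circulating ligand BMP9, fell in males by 0.28 (limma, adjusted p = 0.120), and Smurf2, a ubiquitin ligase that acts on SMAD signalling, by 0.16 (limma, adjusted p = 0.122). The difference between the sexes passed p 0.01 for 1 of the 24, Smurf2 (-0.20, limma, adjusted p = 0.391), against 2.50% of all genes. The receptors and SMAD proteins had small differences that did not pass in either sex: Bmpr1a -0.02 and 0.09 in males and females, Acvr1 -0.02 and -0.07, Smad1 0.02 and -0.11, and Smad5 -0.08 and -0.04. The co-receptor Hjv, hemojuvelin, had 0.10 and -0.03. Acvr1 and Hjv are not among the 24, since the filter on spread dropped them, and are given from the fit without it. Further targets of BMP signals did not pass either, with 0.12 and 0.03 for Smad6, -0.02 and -0.20 for Atoh8, -0.05 and -0.09 for Id2, and 0.06 and -0.02 for Id3.

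**Figure D5:**
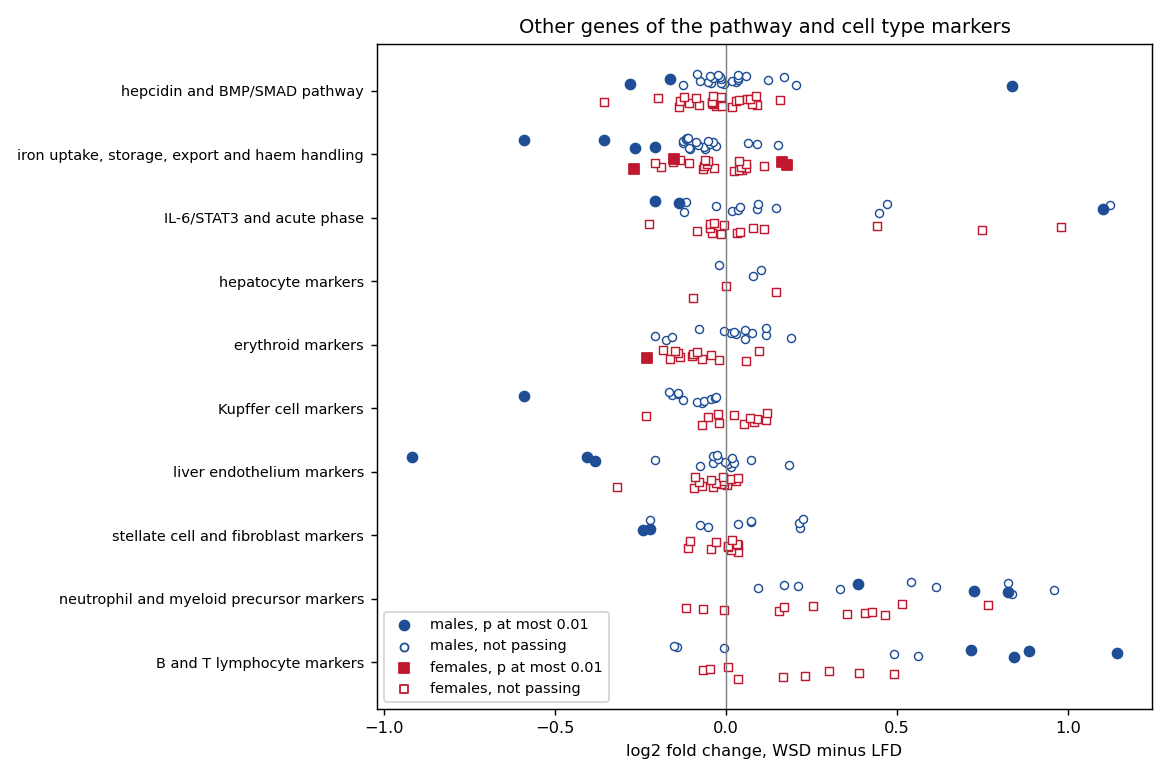
Log2 fold change (WSD minus LFD) of the tested genes of each list, males as circles and females as squares, filled where limma gave p at most 0.01. Hamp2 (0.84) stands apart in the pathway list, and the neutrophil and lymphocyte markers lie mostly to the right of 0 in males (medians 0.58 and 0.56).

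Of 23 tested genes for the uptake, storage and export of iron and for haem, 0 rose and 4 fell in males, and 2 rose and 2 fell in females. The median change was -0.10 in males and -0.05 in females. Of all genes tested, 3.02% rose and 2.60% fell in males, and 3.60% rose and 1.59% fell in females. Steap2, a metalloreductase that reduces ferric iron, fell in males and females by 0.27 each (limma, adjusted p = 0.0227 and 0.0138). Cd163, the haemoglobin scavenger receptor of macrophages, fell in males by 0.59 (standard error 0.14; limma, adjusted p = 0.0437), and the difference in females was -0.05. Blvrb, a biliverdin reductase, and the metalloreductase Steap4 also fell in males, by 0.36 (limma, adjusted p = 0.147) and 0.21 (limma, adjusted p = 0.148).

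In females Aco1, which binds iron-responsive elements of mRNA such as those of Tfrc and ferritin, rose by 0.18 (standard error 0.05; limma, adjusted p = 0.0796). Blvra, the other biliverdin reductase, rose by 0.16 (limma, adjusted p = 0.176), and Mon1a, a trafficking factor of ferroportin, fell by 0.15 (limma, adjusted p = 0.172). Ftl1, the light chain of the storage protein ferritin, had differences of 0.15 in males and -0.19 in females, neither of which passed. The difference between these, 0.34, passed p 0.01 (limma, adjusted p = 0.366). For Cd163 the difference between the sexes, -0.54, passed p 0.01 too (limma, adjusted p = 0.393). Fth1, the heavy chain, had -0.03 and 0.06, the plasma carrier Trf -0.02 and -0.00, and the ferroxidase Cp -0.08 and 0.04. The importers Slc39a14 and Slc11a2 had -0.10 and 0.05, and -0.06 and 0.02, and the haem oxygenase Hmox1 had -0.13 and -0.21; none of these passed.

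Of 15 tested genes of the STAT3 and acute phase list, 1 rose and 2 fell in males and 0 changed in females. The shares of all genes tested were 3.02% risen and 2.60% fallen in males and 5.19% changed in females. Saa2, serum amyloid A, rose in males by 1.102 (standard error 0.31; limma, adjusted p = 0.0745), from a range of 3.55 to 4.28 in m-LF to one of 4.08 to 5.97 in m-WS. Its difference in females was 0.75 (standard error 0.28; limma, adjusted p = 0.205). The m-LF range of Saa2 lay wholly under the intensity minimum (4.32 in log2), as did its f-LF median of 3.89. The medians in m-WS and f-WS were 5.08 and 4.56. Saa2 was thus dim on LFD, and the size of its rise is uncertain. The changes of the 15 genes ran from -0.21 to 1.12 in males and from -0.23 to 0.98 in females. The highest of each sex did not pass p 0.01, and the medians were 0.04 and -0.01. Serpina3n, a protease inhibitor of the acute phase, fell in males by 0.14 (limma, adjusted p = 0.130), as did Steap4. Socs3, a feedback inhibitor that STAT3 induces, had 0.09 and -0.09 in males and females, Stat3 itself 0.03 and 0.04, and the receptor Il6ra -0.12 and -0.04. The mean of the 24 measured genes of this list was 8.48 to 8.65 in m-LF and 8.54 to 8.80 in m-WS, and its part in the rise of Hamp was not tested.

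Some markers of other cells rose in males on WSD. Of 12 neutrophil and myeloid markers 3 rose and 0 fell, namely S100a9, Ltf and Cxcr2. Of 9 lymphocyte markers 4 rose and 0 fell, all of B cells (Igll1, Ebf1, Cd79a and Pax5), with Igll1, the surrogate light chain, at 1.14. In females 0 of these 12 and 0 of these 9 changed, with median changes of 0.30 and 0.17 beside 0.58 and 0.56 in males. With all pups, the difference between the sexes passed p 0.01 for 0 of the 12 and 0 of the 9, against 2.50% of all genes. Without m-LF6 and m-WS1 it passed for 0 of the 12 and for 1 of the 9, Cd79a (0.94), against 3.37% of all genes. Over all genes tested, 3.02% rose and 2.60% fell in males, and 5.19% changed in females. Of 12 Kupffer cell markers 1 fell in males, Cd163, and 0 rose. The median change of the 12 in males was -0.10, and 0 of them had a change above 0. In females 0 of the 12 changed, with a median of 0.04. The mean neutrophil signal was 5.29 to 6.70 in m-LF and 5.94 to 6.56 in m-WS, and the mean lymphocyte signal 5.14 to 5.96 and 5.66 to 5.95. The highest male neutrophil mean, 6.70, belonged to m-LF5, whose Hamp signal was 4.66. In f-LF8, the female of highest Hamp, the neutrophil mean was 6.76, the lymphocyte mean 6.25 and the erythroid mean 5.81, each the highest of f-LF. The part of these cells in the values of Hamp was not tested.

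The endothelial markers that fell in males were Wnt2 (-0.92; limma, adjusted p = 0.0570), Rspo3 (-0.41; limma, adjusted p = 0.0839) and Clec4g (-0.38; limma, adjusted p = 0.0728). Wnt2 and Rspo3 are signals of the central vein region, and their fall stands beside a rise of Bmp6, an endothelial ligand too, in the same males. Of 11 stellate cell and fibroblast markers Lrat and Reln fell in males, by 0.24 and 0.22, and 0 of 11 changed in females. By comparison, 2.60% of all genes tested fell in males and 5.19% changed in females. The difference between the sexes passed p 0.01 for 2 of the 16 endothelial markers, Wnt2 (-0.93) and Rspo3 (-0.44). It also passed for 1 of the 11 stellate cell and fibroblast markers, Reln (-0.24). Of all genes 2.50% passed, and the adjusted p of these 3 was at least 0.386 (limma). Of the 3 hepatocyte markers that passed the filters, 0 changed in either sex. Without m-LF6 and m-WS1 the pathway, iron, acute phase and marker genes named as risen or fallen in males kept p 0.01, except Ltf (0.76; limma, adjusted p = 0.165). Among them Cd163 was at -0.69, Wnt2 at -1.05, Saa2 at 1.30 and Igll1 at 1.32. Without these 2 pups 2 further B cell markers rose, Cd79b and Ms4a1, which made 6 of 9, where 6.70% of all genes changed.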

How the data were processed

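Liver RNA of 27 pups was measured on 1 array each. The authors computed the deposited log2 values by RMA over all arrays; its version is not given in the sources used here. Of 35556 probe sets, 21218 name a single gene, and per gene the one of highest mean was kept (18820 genes). The redefined probe sets that the methods describe are not in this table. The methods' filters (4 or more arrays with an intensity of 20 or more, and an IQR from 0.1) left 10810 genes, or 13279 without the IQR. One mean per group (4 in all) was estimated with limma 3.58.1 in R 4.3.3, with an intensity trend in the prior variance, and p-values were adjusted by Benjamini and Hochberg over all genes. As in the methods, p at most 0.01 counts as changed. The fit was tested on simulated data. Correlations used 100000 permutations within groups (Python 3.11.15). Named were the 10 genes, Hamp2, up to 6 changed genes of smallest p per list and sex, a fixed set of pathway genes whatever their p (Saa1 has no single-gene probe set), and the 5 genes most like Hamp. The members and lists were chosen with earlier results of these data known; averaging by number and leaving out the pups of extreme Hamp were added after seeing the data. Replicate numbers of the titles do not pair pups.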

Additional observations from a re-analysis of the deposited data

Results flagged for a closer look

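In 3 of 40 combinations of a gene and a group, 1 pup stood apart from the others by Dixon's test at the 95% level, which chance alone gives in about 1 in 20 groups. The Hamp signal of f-LF8 was 7.56, where the other LFD females ended at 5.48. The Bmp2 signal of m-WS3 was 7.65, below the other WSD males, and the Tfr2 signal of m-LF5 was 10.26, above the other LFD males.

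The response to maternal WSD differed between males and females for 2 genes by the interaction term of limma at p 0.01. For Hamp the change in males exceeded that in females by 2.14 (adjusted p = 0.355), with 6 of 6 WSD males above and 4 of 6 WSD females below the mean of their LFD group. For Tfrc the change in males minus that in females was -0.33 (adjusted p = 0.361), with 5 of 6 WSD males below and 5 of 6 WSD females above the mean of their LFD group.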

How the results depend on the processing

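The rise of Hamp in males passed p 0.01 in 47 of 48 other settings (1.41 to 2.04), that of Bmp6 in 34 of 48 (0.37 to 0.49), the fall of Bmp2 in females in 38 of 47 (-0.29 to -0.13), and the rises of Smad7 and Tfrc in females in 25 of 48 each (0.18 to 0.34 and 0.10 to 0.22). All kept their direction in these settings. The count of the 7 members changed in males (2) became 1 with the array number as a random block and without number 37, 40 or 49, and 0 without number 48 and at an adjusted p under 0.05; without single pups it was 1 to 2, and without m-LF6 and m-WS1 it was 3. The count in females (3) became 1 with each array centred on its median or quantile normalisation repeated. It became 0 without number 40, 49 or 50, with arrays of a group and number averaged, and at the adjusted threshold. It was also 0 with an IQR of at least 0.2, but that filter left Bmp2 (IQR 0.18), Id1 and Hfe untested. Smad7 and Tfrc were tested there and missed p 0.01. Without single pups the count was 0 to 3. The count that differed between the sexes (2) became 0 at the adjusted threshold. The count that differed on LFD (0) became 1 with array weights, and was 0 to 1 without single pups. The causes were not tested.

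With the replicate number as a block, the counts were 2 in males and 1 in females. Same-numbered pups did not deviate together (correlations -0.26 to 0.11 in males and -0.22 to 0.26 in females), so they share only a number; over all genes the block gave 651 calls against 608 in males and 566 against 561 in females.

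Small differences that did not pass turned their sign. Without number 50 these were Smad7 (-0.00654) and Hfe (0.0226) in males and Bmp6 in females (0.0224). Without number 48 they were Hfe (-0.00815) and Id1 (0.0146) in females. Bmp6 in females was 0.0392 with array weights and 0.105 without number 39. Id1 in females was 0.000132 with the number as a random block, 0.000896 with the array prefix as a term, 0.0182 and 0.0700 without numbers 40 and 49, and 0.0241 with averaged arrays. The difference between the sexes for Bmp2 was -0.0593 without number 40. Without single pups, Hfe in males ran from -0.0760 to 0.00475, Bmp6 in females from -0.107 to 0.0707, Id1 in females from -0.0492 to 0.0179, and the difference for Bmp2 from -0.00892 to 0.119.

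Of the 9 relations of Hamp, 2 passed. The count was 1 with group means kept, 0 with the means of array numbers removed, and 1 without the 2 pups farthest from the median of the member or of Hamp. The r that turned sign were those of Bmp2 with group means kept (-0.123) and without the pups farthest on Hamp (-0.152), Smad7 with number means removed (0.248), Tmprss6 without the pups farthest on itself (0.085) or on Hamp (0.022), and Tfr2 without m-LF6 and m-WS1 (0.045) or the pups farthest on Hamp (0.116). Each probe set on its own gave no further value, since each gene had 1.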
